A study of Caenorhabditis elegans with 33 samples.

Results

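The proteasome subunit genes were taken as all genes whose WormBase symbol begins with pas-, pbs-, rpt- or rpn- followed by a number. There were 33 such genes among the 21975 genes in the table, and all 33 passed the filter for testing, a mean of at least 1 FPKM (fragments scaled for transcript length and library size) over the 33 libraries, which 13309 genes passed. Poly(A) RNA had been sequenced from whole L3 larvae of Caenorhabditis elegans in 3 libraries for each of 11 conditions. The study asked whether DPY-27, a condensin subunit of the dosage compensation machinery that lowers X-linked expression in hermaphrodites, is needed to maintain that repression. It also asked whether loss of CEC-4, which tethers heterochromatin to the nuclear periphery, worsens defects caused by loss of DPY-27 or of DPY-21. DPY-21 is a histone demethylase of the same machinery.

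The strain labelled TIR-1; dpy-27::AID; cec-4, called here the cec-4 degron strain, carried the cec-4(ok3124) deletion, an auxin-inducible degron tag on dpy-27 (allele xoe41), and a transgene that expresses the plant F-box protein TIR1 from the ubiquitous eft-3 promoter. It was sampled with auxin and without. The TIR-1; dpy-27::AID strain, called the degron strain, had the same tag and transgene with wild-type cec-4, and the dpy-27::AID strain, called the tag-only strain, had the tag without TIR1. Both were sampled with and without auxin, as was the cec-4 strain. The dpy-21; cec-4, dpy-21(e428) and WT (N2) strains were sampled without auxin only. Collection followed 24 hours after synchronised L1 animals had been placed on bacteria, with 4 mM auxin in the plates of the treated animals. The labels do not say whether the replicates were separate cultures, so the p-values measure the spread between these libraries, which may be technical.

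The proteasome is the protease that degrades ubiquitin-tagged proteins in the cytosol and nucleus. A barrel-shaped core particle of stacked alpha and beta rings holds the proteolytic sites, and a regulatory particle at its ends binds, deubiquitinates, unfolds and feeds in the substrate. The auxin system depends on this machine, since TIR1 joins the endogenous SCF ubiquitin ligase and marks the tagged protein for the proteasome. The 33 genes comprised 7 core alpha genes (pas-1 to pas-7), 7 core beta genes (pbs-1 to pbs-7), 6 base ATPases (rpt-1 to rpt-6), 4 other base genes (rpn-1, rpn-2, rpn-10 and rpn-13) and 9 lid genes (the other rpn genes). All were autosomal: chromosome I held 10, chromosome III 8, chromosome II 7, chromosome V 5 and chromosome IV 3.

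By the median of each part of the complex, the core genes had the highest levels per length, although the ATPase gene rpt-2 (183.2 FPKM) was level with the lowest core gene, pbs-2 (182.7 FPKM). Mean FPKM over the 33 libraries ran between 243 and 373 for the alpha genes (median 262) and between 183 and 358 for the beta genes (median 269). The base ATPases had 46.8 to 183 FPKM (median 141), the other base genes 22.4 to 135 (median 100.1), and the lid genes 2.48 to 172 (median 75.6). The lid median takes in rpn-5, rpn-6.1, rpn-6.2, rpn-7 and rpn-11, which have 2 annotated transcripts, a trait taken up below. So have rpt-4, rpn-2 and rpn-13 of the base. The lid genes with 1 transcript, rpn-3, rpn-8, rpn-9 and rpn-12, had 145 to 172 FPKM. The summed alpha level divided by the summed beta level stayed within 0.944 to 1.22 over the 33 libraries (median 1.11). The mean level of rpt-1, rpt-2, rpt-3, rpt-5 and rpt-6 divided by the mean alpha level lay within 0.449 to 0.633 (median 0.521).

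The highest member was pas-3, an alpha ring gene, with 258 FPKM in its lowest library, a median of 363 and 586 in its highest. The lowest was rpn-6.2, with 0.0986, 2.10 and 6.54 FPKM. rpn-6.2 is the paralogue of the lid gene rpn-6.1, whose library values ran between 7.66 and 64.1 FPKM with a median of 34.4. Every library had more rpn-6.1 than rpn-6.2. The lid gene rpn-7 was listed at 0 in 7 libraries and reached 9.95 FPKM in its highest one.

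**Figure D1:**
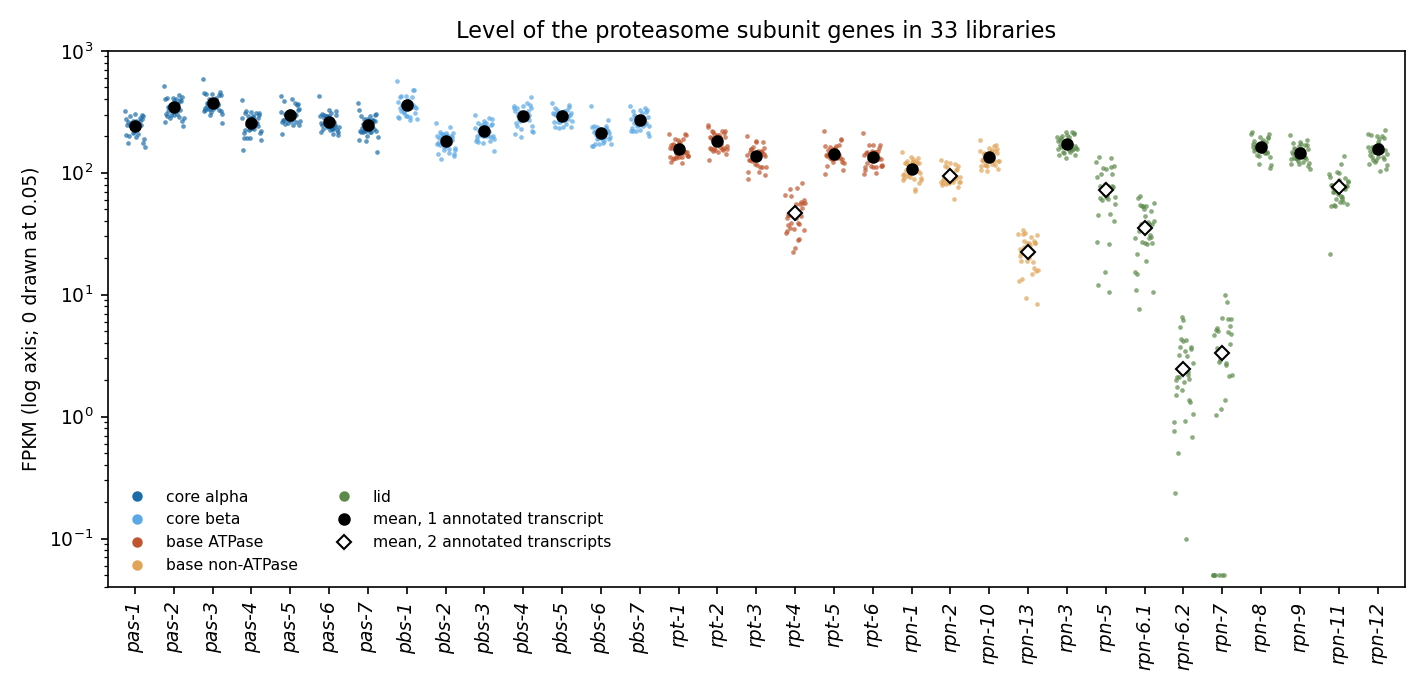
FPKM (log axis) of each of the 33 proteasome subunit genes in the 33 libraries (small points, coloured by the part of the complex) with the mean over libraries as a filled circle for genes with 1 annotated transcript and an open diamond for genes with 2; an FPKM of 0 is drawn at 0.05. The 8 genes with 2 annotated transcripts are the 8 lowest, from rpn-2 at 93.7 FPKM to rpn-6.2 at 2.48.

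Within the complex, level and spread went with the number of annotated transcripts, a pattern seen only after the values had been examined. The 8 members with 2 annotated transcripts (rpt-4, rpn-2, rpn-5, rpn-6.1, rpn-6.2, rpn-7, rpn-11 and rpn-13) had mean levels of 2.48 to 93.7 FPKM. The 25 members with 1 transcript had 106 to 373 FPKM, so the groups did not overlap. The SD of log2(FPKM + 0.1) between replicates, pooled over the conditions, had a median of 0.66 in the 8 genes (0.22 to 2.19) and 0.23 in the 25 genes (0.15 to 0.29).

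rpn-5, a lid scaffold gene, shows the size of this spread: the 3 cec-4 libraries without auxin had 12.05, 45.2 and 136 FPKM. Over all tested genes the median spread was 1.06 for genes with 2 or more transcripts and 0.51 for genes with 1, but mean levels differed as well. Among tested genes with a mean of at least 20 FPKM, a limit set after seeing the data, the medians were 0.38 and 0.32. Whether the assignment of fragments among transcripts has a part in this was not tested. A difference in rpn-5, rpn-6.1, rpn-6.2 or rpn-7 between 2 conditions had an SE of 0.62 to 1.71 on the log2 scale, against 0.13 to 0.23 for the 25 members with 1 transcript.

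**Figure D2:**
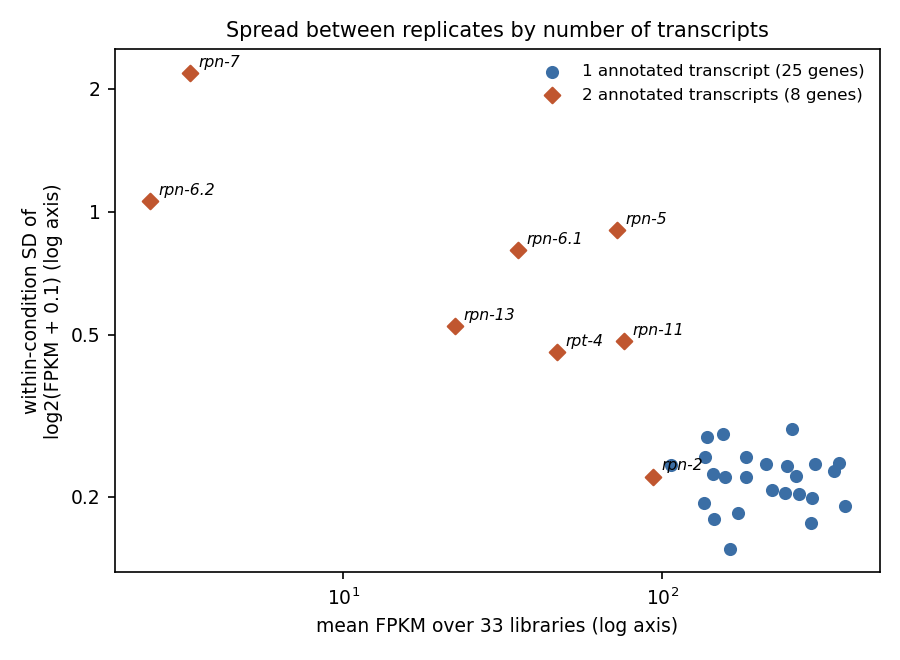
Within-condition SD of log2(FPKM + 0.1) against mean FPKM (both axes log) for the 25 subunit genes with 1 annotated transcript (circles) and the 8 with 2 (diamonds, named). The 25 genes lie between 0.15 and 0.29, and 7 of the 8 others lie above them, rpn-2 at 0.22 being the exception.

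Several members overlap another gene in the annotation. The largest overlap is that of rpn-7, with 20.7% of its exon bases shared with nemt-1 on the other strand, followed by rpn-9 with 10.6% (T06D8.12, other strand) and pbs-4 with 9.11% (mrrf-1, other strand). The library kit keeps strand, but the strand setting used in quantification is not given in the sources used here, so reads in the shared bases cannot be assigned with certainty.

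Most of the members with 1 transcript varied together between libraries of the same condition. Correlations of the within-condition deviations over the 33 libraries had a median r of 0.66 among the 300 pairs of members with 1 transcript (0.062 to 0.91), and 0.65 for the 154 pairs that joined a core gene with a regulatory particle gene. Among the 28 pairs of members with 2 transcripts the median r was 0.095. Each member with 1 transcript correlated with the mean of the other such members at a median r of 0.81. These are descriptions, and all points share the libraries and their scaling. Here and in the next paragraph they include the 3 WT libraries, where the members' median log2 deviations were 0.49, 0.10 and -0.30. Values without WT are not given for these correlations.

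Among 13276 other tested genes, the 10 whose within-condition deviations were most like the members' mean had r of 0.78 to 0.82, where the median gene had -0.048 and the 95th percentile was 0.53. They were sqd-1, usp-14, ech-4, ostb-1, acdh-10, daf-9, acdh-7, ani-2, daz-1 and C05C10.3. usp-14 encodes a deubiquitinase that binds the regulatory particle.

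The facts of the whole series that touch these values are few. FPKM sums per library lay between 1412883 and 1671480, except in WT replicates 1 and 2 (2554942 and 2021791), where 78 cytosolic ribosomal protein genes took 44.8% and 41.7% of the sum, against 32.5% to 37.3% in the other 31 libraries. Log2 levels of replicates correlated across genes at 0.76 to 0.90. cec-4 was listed at 0 in 11 of 15 libraries of cec-4 mutant strains (highest 8.99 FPKM) and in 2 of the 18 others (highest 19.6), so its level separates the genotypes only in part. In the cec-4 degron strain it had 0 to 8.99 FPKM without auxin and 0 to 5.69 with it. These ranges overlapped those of the degron strain, 3.07 to 7.03 FPKM without auxin and 0 to 15.6 with it. For the degron and the point allele, dpy-27 had 20.2 to 37.3 FPKM and dpy-21 had 15.8 to 34.9 FPKM in the 33 libraries, and neither level checks the labels. Germline markers were detected in every library (summed level 66.9 to 310 FPKM), although pgl-1 was at 0 in 30 of them. The 11 sperm markers summed to 0 to 23.3 FPKM in 32 libraries and to 80.9 in cec-4 replicate 1 without auxin. Among them gsp-3 and gsp-4 were at 0 throughout, and msp-31 reached 23.3 FPKM and was at 0 in 20 libraries. The vitellogenin genes stayed at or below 3.08 FPKM, and the adult collagen gene col-19 reached 11.98 FPKM and was at 0 in 16 libraries.

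The question in the cec-4 degron strain was what depletion of DPY-27 does when CEC-4 is absent. In both TIR1 strains without auxin, the paper reports somewhat lower DPY-27 staining than in WT. It also reports slight X derepression there, for which it names leaky TIR1 as a possible cause. The untreated libraries of both strains may therefore be partly depleted. Of the 33 members, 6 fell and 0 rose at an adjusted p under 0.05 (limma on log2(FPKM + 0.1), Benjamini-Hochberg over all 13309 genes); of all tested genes 443 fell, 3.33%, and 3.07% rose, 6.40% in either direction. The fitted difference was negative for 30 of the 33 members, with a median of -0.43, a ratio of 0.740, where the median of all tested genes was -0.045 and 52.4% of genes were negative. All 25 members with 1 transcript were negative, between -0.72 and -0.21, and 18 of the 33 had an unadjusted p under 0.05, as did 21.1% of all tested genes. Here and in the other comparisons, all tested genes include X-linked ones, while the members are autosomal. The paper reports that X-linked expression rose with auxin in this strain. Shares and medians over autosomal genes alone are not given.

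rpn-8, a lid gene whose product pairs with the deubiquitinase RPN-11, had 135, 110 and 117 FPKM with auxin, against 196, 192 and 207 FPKM without (121 ± 13.1 and 198 ± 7.77, SD, n = 3 each). The highest treated library lay below the lowest untreated one. The gene (WBGene00004464, chromosome I, 4175319 to 4177271, plus strand, WBcel235) fell by 0.72 on the log2 scale (SE 0.13, limma adjusted p = 0.00236).

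pbs-4 (WBGene00003950, chromosome I, 3908747 to 3909701, plus strand), a non-catalytic beta ring gene, had 222, 243 and 215 FPKM with auxin, against 360, 338 and 421 FPKM without. The treated and untreated libraries did not overlap. It fell by 0.71 (SE 0.17, limma adjusted p = 0.0118).

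pas-1 (WBGene00003922, chromosome V, 14421566 to 14422618, minus strand), an alpha ring gene, had 174, 188 and 164 FPKM with auxin, against 277, 295 and 292 FPKM without. The gap between the groups was wider than the range within either. It fell by 0.72 (SE 0.17, limma adjusted p = 0.0129).

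rpn-9 (WBGene00004465, chromosome II, 11237447 to 11238919, minus strand), a structural lid gene, had 113, 119 and 107 FPKM with auxin, against 184, 168 and 156 FPKM without. All treated libraries again lay below all untreated ones. It fell by 0.58 (SE 0.15, limma adjusted p = 0.0233).

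The other 2 that fell were alpha genes. pas-3 (chromosome I, 5105110 to 5106048, minus strand) had 321, 258 and 304 FPKM with auxin, against 437, 461 and 437 FPKM without, and fell by 0.60 (SE 0.16, limma adjusted p = 0.0241). pas-7 (chromosome II, 10098782 to 10099854, minus strand) had 220, 147 and 196 FPKM with auxin, against 297, 266 and 302 FPKM without, and fell by 0.64 (SE 0.19, limma adjusted p = 0.0470). Neither pair of groups overlapped.

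**Figure D3:**
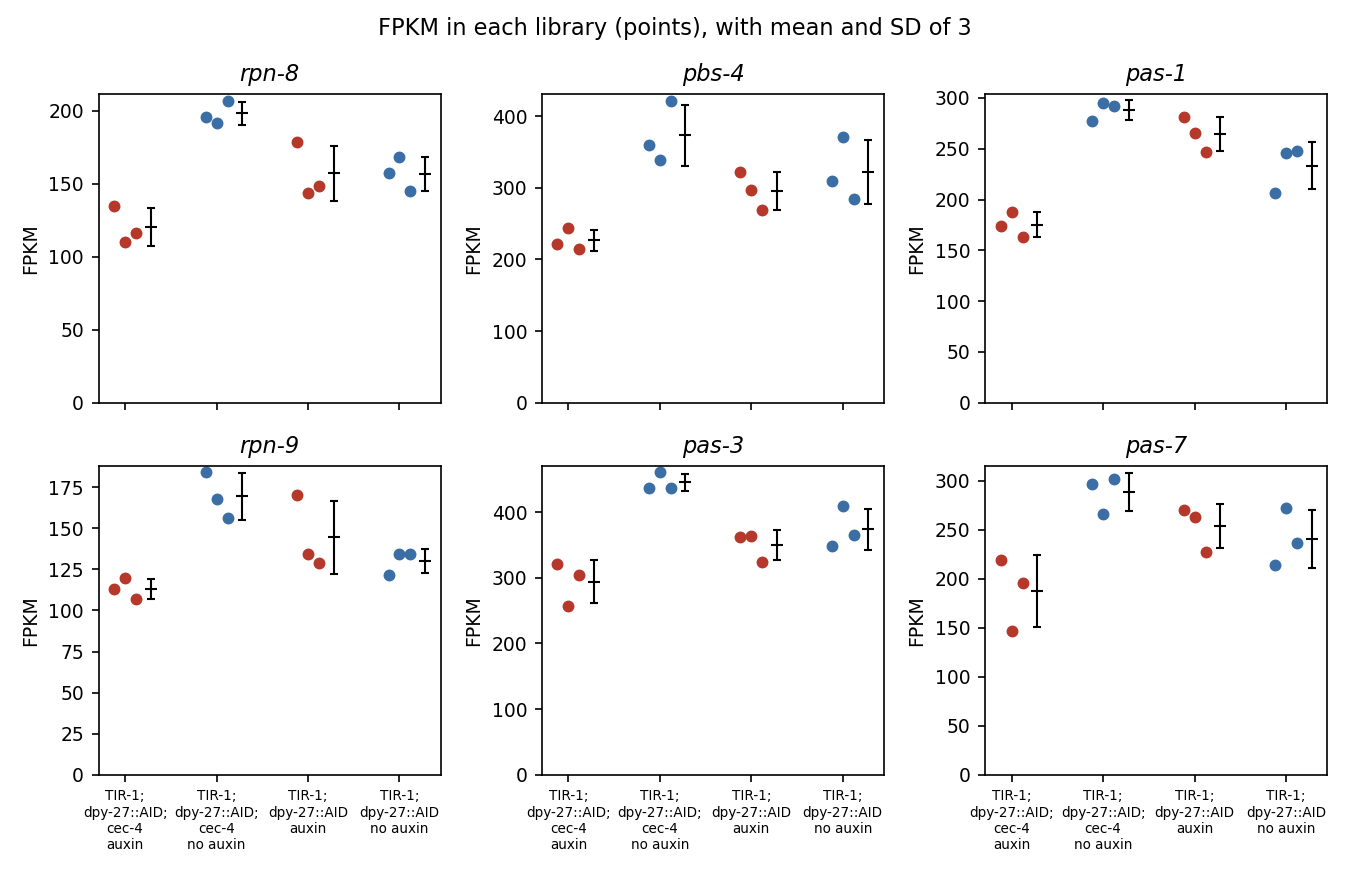
FPKM of the 6 subunit genes that fell with auxin in the cec-4 degron strain, in each library (points) of the cec-4 degron strain and the degron strain with auxin (red) and without (blue), with the mean and SD of 3 libraries at the right of each group. In the cec-4 degron strain the treated points lie below the untreated ones for all 6 genes, for example rpn-8 at 110 to 135 against 192 to 207 FPKM, while in the degron strain the points overlap.

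By part of the complex, 3 of 7 alpha genes, 1 of 7 beta genes and 2 of 9 lid genes fell, with median differences of -0.60, -0.49 and -0.36. The lid median takes in rpn-5, rpn-7 and rpn-11, which have 2 annotated transcripts and the positive estimates given below. None of the 6 base ATPases or the 4 other base genes passed (limma, lowest adjusted p 0.101 and 0.149), at medians of -0.42 and -0.32. The ATPases, which unfold the substrate, lay within -0.52 to -0.35. In 18 members every treated library was below every untreated one, as in 15.2% of all tested genes. The opposite order held for 1 member, as in 15.4% of all tested genes.

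The catalytic beta genes carry the active-site threonine, with caspase-like (pbs-1), trypsin-like (pbs-2) and chymotrypsin-like (pbs-5) activity known from the yeast and mammalian subunits. None of the 3 passed the test in the cec-4 degron strain. pbs-1 had 311, 336 and 275 FPKM with auxin, against 478, 479 and 349 FPKM without (log2 difference -0.49, SE 0.20, limma adjusted p = 0.139). pbs-2 had 141, 152 and 160 FPKM, against 185, 212 and 137 FPKM (-0.21, SE 0.18, limma adjusted p = 0.563), with overlapping groups. pbs-5 had 310, 237 and 263 FPKM, against 346, 361 and 297 FPKM (-0.31, SE 0.15, limma adjusted p = 0.222). Whether catalytic and other beta genes differ in their response was not tested.

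The positive estimates were those of rpn-11 (0.27, SE 0.38), rpn-5 (0.13, SE 0.69) and rpn-7 (0.16, SE 1.71), all with 2 annotated transcripts. rpn-11 encodes the deubiquitinase that removes ubiquitin chains before degradation. Its treated libraries had 77.7, 84.2 and 84.9 FPKM, against 73.3, 77.5 and 55.5 FPKM in the untreated ones. The ubiquitin receptors rpn-10 and rpn-13 had differences of -0.40 (SE 0.16, limma adjusted p = 0.149) and -0.46 (SE 0.42, limma adjusted p = 0.587).

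The count of 6 rested on few libraries. It was 3 without any 1 of the 3 untreated libraries in turn, 2 without treated replicate 3, 5 without treated replicate 1 and 4 without treated replicate 2, and rpn-8 alone was called in all 6 of these fits. With FPKM sums made equal between libraries it was 11. Shares of all tested genes past the threshold in these alternative fits are not given. The median difference stayed between -0.54 and -0.36 in the 6 fits.

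**Figure D4:**
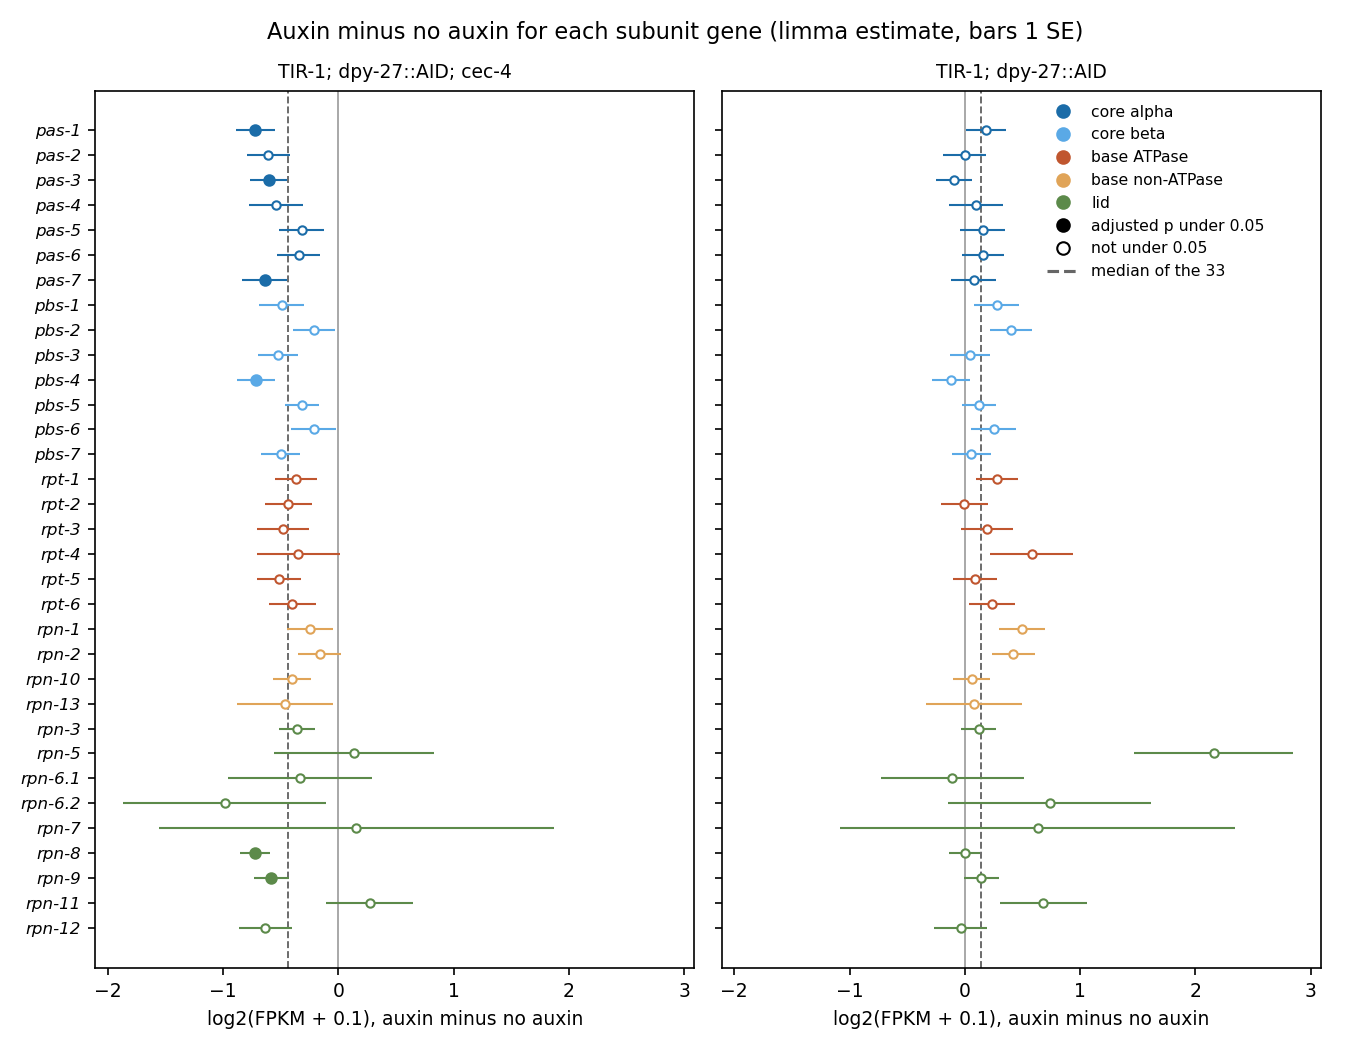
Fitted log2(FPKM + 0.1) difference, auxin minus no auxin, of each subunit gene in the cec-4 degron strain (left) and in the degron strain (right), with bars of 1 SE, colours for the part of the complex, filled points for a limma adjusted p under 0.05 and a dashed line at the median of the 33. On the left the median is -0.43 with 6 filled points, all negative. On the right it is 0.14 with 0 filled points.

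In the degron strain with wild-type cec-4, no member passed the test for auxin. Here 0 of 33 members passed (limma), 4 had an unadjusted p under 0.05 (11.6% of all tested genes did), and 0.413% of all tested genes passed. The median difference was 0.14 (all genes -0.038) and 26 members were positive. The median was 0.053 without treated replicate 1, 0.094 to 0.20 without each of the other libraries, and 0.080 with equal FPKM sums (all genes -0.097). rpn-8 had 179, 144 and 149 FPKM with auxin, against 157, 169 and 145 FPKM without (-0.0016, SE 0.13). The smallest adjusted p was that of rpn-5, with 111, 132 and 77.3 FPKM against 26.2, 10.4 and 46.1 FPKM (2.16, SE 0.69, limma adjusted p = 0.170), the gene with the wide spread described above.

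The difference between the strains in their response to auxin was tested as an interaction. It was negative for all 33 members, at a median of -0.60, where the median of all tested genes was 0.029. No member passed (limma; 1.44% of all tested genes did), while 20 had an unadjusted p under 0.05, as did 15.5% of all tested genes. The lowest adjusted values were 0.0525 for rpn-8 (-0.72, SE 0.19) and 0.0568 for pas-1 (-0.90, SE 0.24). Requiring a mean of at least 5 FPKM brought both under 0.05, and equal FPKM sums or a fit of only these 4 conditions brought pas-1 under it. Of the fits that left out a library, 1 member passed in that without treated replicate 1 of the cec-4 degron strain. An effect of cec-4 on the response of single subunit genes was therefore not established at this number of libraries.

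The same 4 conditions can be read the other way. With auxin, the cec-4 degron strain was below the degron strain for all 33 members, at a median of -0.28 (all genes 0.00). No member passed (limma; 2.28% of all tested genes did) and 8 had an unadjusted p under 0.05 (16.03% of all tested genes did). pas-1 came closest, with 174, 188 and 164 FPKM in the cec-4 degron strain, against 281, 265 and 247 FPKM in the degron strain (-0.60, SE 0.17, limma adjusted p = 0.0617). It passed with a mean of at least 5 FPKM required and with equal FPKM sums. Without auxin the cec-4 degron strain was above the degron strain for 32 of 33 members, at a median of 0.28 (all genes -0.022). There too 0 passed (limma; 0.0827% of all tested genes did), and 7 had an unadjusted p under 0.05 (8.66% of all tested genes did). The molting list had a median of -1.67 with auxin, where 5 of 9 tested genes were lower past the threshold, and of 1.75 without, where all 9 were positive and 0 passed (limma, 7 with an unadjusted p under 0.05). The germline list had a median of -0.33 with auxin, with 9 of 11 tested genes negative. Without auxin its median was 0.78, with all 11 positive, and 0 passed in either (limma). The part of these lists in the differences was not tested. These comparisons share libraries with the auxin comparisons above, so their signs are not independent of them.

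Per library, the level of the complex can be given as the median over the 33 members of the log2 deviation from each member's own mean. Treated libraries of the cec-4 degron strain had -0.25, -0.20 and -0.23, against 0.28, 0.29 and 0.099 in the untreated ones. The libraries of the 2 conditions did not overlap. On the deposited scale they were the lowest and the highest of the 11 conditions by their median library. With equal FPKM sums WT was lowest (-0.21, -0.26 and -0.17), and the treated cec-4 degron libraries (-0.25, -0.16 and -0.17) overlapped it. The degron strain had 0.27, -0.021 and -0.061 with auxin, against -0.17, -0.076 and -0.021 without. The remaining 7 conditions lay between -0.30 and 0.49, both limits coming from WT libraries.

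As a share of all FPKM, the 33 genes took 0.316% to 0.320% in treated libraries of the cec-4 degron strain, against 0.409% to 0.454% in untreated ones. WT libraries had 0.318% to 0.323%, close to the treated ones, and over all 33 libraries the range was 0.316% to 0.460%. In a whole larva, a lower level in each cell and fewer cells with a high level cannot be told apart.

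Molting genes moved in the same comparison. Larvae express molting and cuticle genes in pulses within each larval stage, so these genes report on developmental timing. The summed level of 11 such genes was 366 to 632 FPKM in treated libraries of the cec-4 degron strain, against 1489 to 1942 FPKM in untreated ones, with mlt-11 at 0 in every library. Of 9 tested, 4 fell, with log2 differences of -3.47 for nas-37, -2.17 for qua-1, -1.82 for noah-2 and -1.60 for mlt-8, 0 rose, and all 9 were negative. In the interaction 6 of the 9 were negative past the threshold, at a list median of -3.59.

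In the degron strain the same sum was 1198 to 2244 FPKM with auxin, against 368 to 1198 FPKM without, and 1 gene, noah-1, rose (by 2.33). Over the 33 libraries, the within-condition deviation of the molting list correlated with that of the proteasome genes at r = 0.25, or 0.55 over the 30 libraries other than WT, and at 0.19 over 31 libraries without the 2 farthest values. For the germline list r was 0.69 over the 33 libraries and 0.54 over the 30, and for the ribosomal protein genes 0.78 and 0.56. These are descriptions over libraries that share their scaling. In the cec-4 degron strain, germline markers had summed levels of 105 to 175 FPKM with auxin, against 209 to 271 FPKM without. Of 11 tested, 0 passed (limma, 3 with an unadjusted p under 0.05), at a median log2 difference of -0.82 with 10 negative. In the interaction their median was -1.19 with 9 negative, and 0 passed (limma, 4 with an unadjusted p under 0.05). For auxin in the degron strain it was 0.35 with 9 positive, and 0 passed. The part of developmental timing or germline size in the proteasome difference was not tested.

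**Figure D5:**
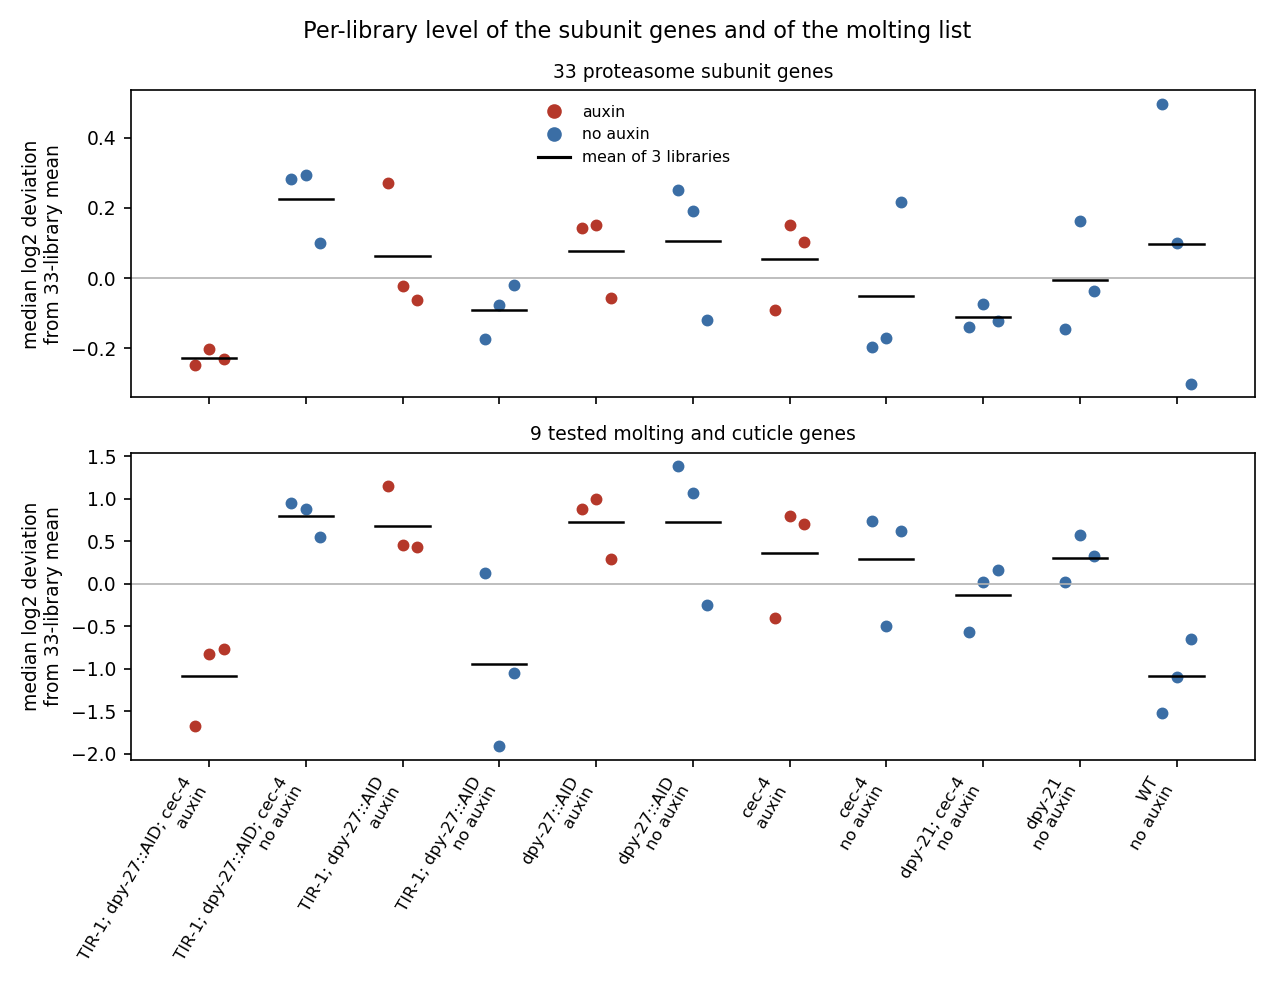
Median log2 deviation from the 33-library mean in each library, for the 33 subunit genes (upper panel) and the 9 tested molting and cuticle genes (lower panel), by condition, with auxin in red, no auxin in blue and a bar at the mean of 3 libraries. The cec-4 degron strain lies at -0.25 to -0.20 with auxin and 0.099 to 0.29 without in the upper panel, and its molting values differ in the same direction.

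Auxin alone was examined in the strains without TIR1. In the tag-only strain the median difference of the 33 members was -0.011 (all genes 0.018), with 14 positive and 19 negative. In the cec-4 strain it was 0.10 (all genes 0.029). Neither had a member past the threshold or with an unadjusted p under 0.05 (limma; 0.00% and 0.00751% of all tested genes passed). rpn-8 differed by 0.010 (SE 0.13) in the tag-only strain and by -0.021 (SE 0.13) in the cec-4 strain.

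The degron strain was also compared with the tag-only strain, which lacks TIR1. With auxin this contrast takes in DPY-27 depletion, and the paper used it to measure that. The median difference was -0.021, with 20 of 33 members negative. None passed (limma; 1.31% of all tested genes did), and 0 had an unadjusted p under 0.05 (12.5% of all tested genes did). Auxin in the degron strain, the other depletion contrast with wild-type cec-4, had a median of 0.14. Without auxin 0 members passed (limma; 0.0376% of all tested genes did), and 2 had an unadjusted p under 0.05 (13.3% of all tested genes did). The median there was -0.11, with 31 of 33 members negative, where 45.8% of all tested genes were negative. This median was -0.26 without untreated tag-only replicate 3 and -0.066 without its replicate 1. In the same comparison the molting list had a median of -1.69 with 9 of 9 negative, and the germline list -0.75 with 11 of 11 negative, and 0 genes of either passed (limma, 6 and 3 with an unadjusted p under 0.05). Their part in the difference was not tested.

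In the mutants without the degron, the dpy-21; cec-4 strain had lower rpn-8 than WT. The double mutant libraries had 136, 118 and 159 FPKM, against 208, 215 and 174 FPKM in WT. It fell by 0.54 (SE 0.13, limma adjusted p = 0.0255), and was the 1 member of 33 past the threshold, where 4.30% of all tested genes passed. Molting genes summed to 840 to 1202 FPKM in the double mutant and 639 to 887 FPKM in WT, and their part in this was not tested. The median difference was -0.22 (all genes 0.055) and 29 members were negative, as were 46.5% of all tested genes. This call was lost without WT replicate 1 or 2, without double mutant replicate 1 or 2 (limma adjusted p between 0.0742 and 0.123), with equal FPKM sums (-0.20, limma adjusted p = 0.436) and with only these 2 conditions fitted (limma adjusted p = 0.304). Against WT replicate 3 alone the difference was -0.34.

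The other comparisons with WT gave 0 members past the threshold in limma. The median difference was -0.098 for dpy-21 (3 members with an unadjusted p under 0.05; 3.66% of all tested genes passed), -0.14 for cec-4 (0 members; 0.195%), -0.012 for the untreated tag-only strain (1 member; 0.586%), -0.16 for the untreated degron strain (4 members; 0.293%) and 0.13 for the untreated cec-4 degron strain (2 members; 1.73%). In these comparisons 14.2% to 19.96% of all tested genes had an unadjusted p under 0.05. Likewise the double mutant had a median of -0.072 against cec-4 (0 members past the threshold, 1 with an unadjusted p under 0.05; 1.56%) and -0.10 against dpy-21 (0 and 0 members; 0.00%). Of all tested genes, 14.1% and 3.90% had an unadjusted p under 0.05 in these.

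These WT comparisons share 3 WT libraries that disagreed for the complex, at median deviations of 0.49, 0.10 and -0.30. With FPKM sums made equal they became -0.21, -0.26 and -0.17. The medians over the members against WT then lay between 0.12 and 0.47 in place of -0.22 and 0.13, but the median of all tested genes moved as well, to between 0.36 and 0.46. Relative to all genes, the members lay between -0.26 and 0.048 with equal sums and between -0.27 and 0.035 on the deposited scale. Without WT replicate 3 the members past the threshold, all lower, numbered 3 for cec-4, 3 for dpy-21, 8 for the double mutant and 2 for the untreated degron strain. Shares of all tested genes past the threshold in those fits are not given, so these counts are not a result about the members. No direction for the complex against WT was established.

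Across all 11 conditions, an F-test of any difference gave 1 member under an adjusted p of 0.05, rpn-8 (limma adjusted p = 0.0135), and 5 with an unadjusted p under 0.05, where 10.2% of all tested genes passed and 25.5% had an unadjusted p under 0.05. Mean rpn-8 levels were 121 ± 13.1 FPKM in the treated cec-4 degron strain and 138 ± 20.6 in the double mutant (SD, n = 3 each). The next 7 conditions had means of 154 to 171 FPKM, and within these 7 neighbours in the order differed by less than their SDs. The untreated cec-4 degron strain and WT were highest, at 198 ± 7.77 and 199 ± 22.3 (SD, n = 3 each). Without WT replicate 1 the F-test gave 2 members, and without WT replicate 3 it gave 6. The shares of all tested genes in those fits are not given.

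The paralogues rpn-6.1 and rpn-6.2 had no call in any comparison. In the cec-4 degron strain rpn-6.1 had 10.5, 56.2 and 40.5 FPKM with auxin, against 48.3, 26.6 and 37.8 FPKM without (-0.34, SE 0.62). rpn-6.2 had 0.679, 2.73 and 1.05 FPKM with auxin, against 1.31, 3.59 and 3.71 FPKM without (-0.99, SE 0.88), and both pairs of groups overlapped. The highest estimates for rpn-6.2 were against WT, where the 3 libraries had 0.898, 0.768 and 0.237 FPKM. The untreated tag-only strain, with 6.14, 4.13 and 1.91 FPKM, was 2.50 above WT (SE 0.88, limma adjusted p = 0.124). At these levels the pseudocount of 0.1 FPKM reduces the fitted change.

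Genes that act with the proteasome were taken from 4 lists. Of 5 genes that control proteasome gene expression, among them skn-1, whose ER-bound isoform drives proteasome genes in C. elegans after processing by png-1 and ddi-1, 0 passed in the auxin comparison of the cec-4 degron strain (limma, 0 with an unadjusted p under 0.05), at a median of -0.17. skn-1 itself had 63.7, 77.5 and 71.6 FPKM with auxin, against 89.3, 87.2 and 52.3 FPKM without, and the groups overlapped. Of 7 tested proteasome-associated genes 0 passed (limma, 2 with an unadjusted p under 0.05), at a median of -0.044. The closest was dss-1, a small lid component outside the rpn names, with 492, 343 and 384 FPKM, against 602, 517 and 702 FPKM (-0.58, SE 0.18, limma adjusted p = 0.0538).

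Of 9 tested genes for ubiquitin, its activating enzyme and the CDC-48 segregase 0 passed (limma, 3 with an unadjusted p under 0.05), at a median of -0.45 with 8 negative. cdc-48.1, an ATPase that extracts ubiquitinated proteins, had 165, 192 and 189 FPKM with auxin, against 275, 277 and 200 FPKM without (-0.45, SE 0.18, limma adjusted p = 0.129). Of 11 genes of the SCF ligase and neddylation, the enzymes that TIR1 works through, 0 passed (limma, 2 with an unadjusted p under 0.05), at a median of -0.34 with 8 negative. ned-8, the ubiquitin-like protein that activates cullins, had 273, 221 and 194 FPKM, against 307, 301 and 374 FPKM (-0.52, SE 0.18, limma adjusted p = 0.0898).

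Other complexes were described in the same comparison. The 8 CCT chaperonin genes, which fold actin and tubulin, had a median of 0.0070, with 4 positive and 4 negative and 0 past the threshold (limma, 0 with an unadjusted p under 0.05). The 77 tested cytosolic ribosomal protein genes had a median of 0.12, with 3 that rose (rpl-25.1 by 0.98, rpl-11.2 by 0.80 and rpl-24.2 by 0.63) and 0 that fell. Over the 4 lists and all comparisons, 1 gene passed, ubq-2, which encodes ubiquitin fused to a ribosomal protein. It had 6117, 7066 and 7279 FPKM in dpy-21, against 15212, 12542 and 6853 FPKM in WT, and fell by 0.69 (SE 0.20, limma adjusted p = 0.0485). The WT libraries that were high are replicates 1 and 2, those with the high ribosomal protein share.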

How the data were processed

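Poly(A) RNA of L3 larvae was sequenced with a strand-keeping kit. The authors trimmed reads with CutAdapt 2.3, checked them with FastQC 0.11.8, quantified transcripts with Salmon 1.9.0 on WBcel235 and analysed them with DESeq2 1.42.0. The deposited values are FPKM per gene. How these were scaled is not given in the sources used here, so the depth behind each value is not known. Median-of-ratios factors (from each library's median ratio to the genes' geometric means) were 1.02 in every library. The deposited values were thus already level between libraries on that scale, and making FPKM sums equal departs from it. Genes were located with Ensembl release 115 (WBcel235). Values were taken as log2(FPKM + 0.1), so folds of low genes are understated, for genes with a mean of at least 1 FPKM, and all 33 libraries were fitted with limma 3.58.1 (R 4.3.3) as 11 condition means with a mean-variance trend. P-values were adjusted by Benjamini-Hochberg over all tested genes within each comparison, two-sided, at 0.05. The members and gene lists were chosen with earlier results of these data known. Values per library are given for up to 4 called members with the smallest adjusted p in each comparison (and here for the remaining 2, chosen after their values were seen), the catalytic genes, the rpn-6 paralogues and the highest and lowest members. rpn-11, rpn-5, skn-1, dss-1, cdc-48.1 and ned-8 were likewise named after their values were seen. The most alike genes were ranked by Pearson's r with the mean of all 33 members. Alternatives were other pseudocounts, filters, scalings, a replicate block, fits of fewer conditions and leaving out libraries. The fit was also run on simulated data with independent noise for each gene. The members varied together, so that setting differs from theirs, and nothing here rests on it.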

Additional observations from a re-analysis of the deposited data

How the results depend on the processing

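With FPKM sums made equal, the count of members past the threshold was 11 for auxin in the cec-4 degron strain, 1 for the cec-4 degron strain against the degron strain with auxin, 1 for the interaction and 3 across all conditions. Against WT it was then 0 for the double mutant, 2 (both higher) for the tag-only strain and 6 (all higher) for the cec-4 degron strain. The median of all tested genes rose as well, to 0.39 for the tag-only strain and 0.42 for the cec-4 degron strain. Shares of all tested genes past the threshold are not given for the alternatives described here. The counts are therefore not a result about the members. With equal sums the member medians against WT were 0.21 for cec-4, 0.22 for dpy-21, 0.12 for the double mutant, 0.36 for the tag-only strain, 0.22 for the degron strain and 0.47 for the cec-4 degron strain. With a mean of at least 5 FPKM the counts were 1 for the cec-4 degron strain against the degron strain with auxin and 2 for the interaction. With only the compared conditions fitted they were 0 for the double mutant against WT and 1 for the interaction. Using WT replicate 3 as the only WT library was an alternative chosen after seeing the data, and only its effect sizes are given. The member medians against it were 0.30 for cec-4, 0.30 for dpy-21 and 0.14 for the double mutant. They were 0.40 for the tag-only strain, 0.22 for the degron strain and 0.56 for the cec-4 degron strain. Leaving out each library in turn gave 2 to 5 members for auxin in the cec-4 degron strain, 0 to 1 for the interaction and 1 to 6 across all conditions. Against WT these fits gave 0 to 3 for cec-4 (medians -0.37 to 0.054), 0 to 3 for dpy-21 (-0.33 to 0.083), 0 to 8 for the double mutant (-0.43 to -0.024), 0 to 2 for the degron strain (-0.40 to 0.0089), and medians of -0.23 to 0.19 for the tag-only strain and -0.066 to 0.32 for the cec-4 degron strain. Medians also ranged over 0.053 to 0.20 for auxin in the degron strain, -0.11 to 0.055 in the tag-only strain and 0.0049 to 0.21 in the cec-4 strain, -0.11 to 0.045 (auxin) and -0.26 to -0.066 (no auxin) for the degron against the tag-only strain, and -0.15 to 0.026 and -0.19 to -0.022 for the double mutant against cec-4 and dpy-21. The cause of these differences was not tested. Replicate numbers did not pair the libraries (same-number deviations correlated at a median of -0.0041 over 165 pairs, and 13 of 33 libraries matched best with their own number), and with a replicate block 5 members passed for auxin in the cec-4 degron strain, pas-7 being lost (limma adjusted p = 0.0556), and no other count changed. In that comparison rpn-8 passed under the 8 other settings and the 6 fits that left out a library (log2 -0.81 to -0.66), pas-1 and pbs-4 were each lost in 1 fit that left out a library, rpn-9 in 4, and pas-3 and pas-7 in 5 each. Of the 8 settings, median-of-ratios scaling divided every library by the same factor. It could therefore barely differ from the main fit and is no check of it. pas-7 was also lost with no filter (limma adjusted p = 0.0736) and with only these conditions fitted (limma adjusted p = 0.0732), and pbs-1 passed with equal FPKM sums (limma adjusted p = 0.0424). Where 1 library of a condition was left out, the other 2 were fitted with the spread pooled over all conditions.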
